A study of Mus musculus with 6 samples.

Results

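Conventional dendritic cells type 1 (cDC1) were examined among CD45+ cells of tumors grown from B16-F10, a mouse melanoma line, that had been profiled by single-cell RNA-Seq. A barcode was taken as cDC1 when it had at least 2 UMIs (unique molecular identifiers, 1 for each captured transcript) summed over Xcr1 and Clec9a. It could hold at most 1 UMI over C1qa, C1qb and C1qc, at most 2 over Fscn1, Ccl22 and Cacnb3, and none of Cd3d, Cd3e, Cd3g, Cd79a or Ms4a1. These limits kept out macrophages, mature dendritic cells, T cells and B cells. Of 52899 deposited barcodes, 30067 had 600 to 4000 genes and at most 10% mitochondrial UMIs, and 285 of these kept barcodes met the rule. They numbered 25, 25 and 33 under αPD-1 and 85, 56 and 61 under αPD-1 + corin.

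Female C57BL/6 mice, 6 to 10 weeks old, had been inoculated with 250000 B16-F10 cells. Both groups received 150 μg of αPD-1, an antibody that blocks the PD-1 checkpoint receptor, 3 times weekly beginning on day 7. The αPD-1 + corin group was also injected with 200 μg of corin, an inhibitor of the CoREST corepressor complex, every day beginning on day 6, and the other group had vehicle. Each arm had 10 mice, and the labels name neither the mice nor the tumors behind the 3 samples per group, so that p-values measure only the spread between these samples.

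cDC1 take up material from dying cells and present its peptides on MHC class I to CD8 T cells, a process called cross-presentation. Their development depends on the transcription factors IRF8 and BATF3. XCR1 is the receptor for a chemokine that activated CD8 T cells and NK cells release, and CLEC9A binds actin filaments that dead cells expose. In tumors, cDC1 are known for carrying antigen to lymph nodes and for making CXCL9 and CXCL10, which attract T cells.

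The depth per cDC1 barcode overlapped between the groups, but the depth of the summed counts did not. The median UMI count per barcode lay between 4179 and 6321 under αPD-1 and between 4188 and 5400.5 under αPD-1 + corin. The summed counts held 157506, 193780 and 187644 UMIs under αPD-1 and 413507, 354390 and 320547 under αPD-1 + corin. A total of 299 barcode sequences were found in more than 1 library, of which 5 belonged to cDC1, and none was a cDC1 barcode in more than 1 library. The libraries differed in other cells. Neutrophil-gate barcodes numbered 2, 3 and 2 under αPD-1 and 111, 316 and 15 under αPD-1 + corin, and S100a8 and S100a9, which mark them, are given beside the chemokine and cytokine results they moved with. Fibroblast markers, summed over 7 genes, were at 0, 346 and 0 CPM in cDC1 under αPD-1 and at 2576, 2.82 and 256 CPM under αPD-1 + corin, and their part in the results was not tested.

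The markers that the rule did not use fit the label for most of the barcodes. Pooled over each group and given as UMIs of the gene per 1000000 UMIs (CPM), Naaa, a lysosomal amidase gene typical of cDC1, was at 1093 CPM in αPD-1 cDC1 and 1285 CPM in αPD-1 + corin cDC1. In the cDC2 gate, the second conventional dendritic cell class, chosen by Cd209a and Clec10a, it was at 238 and 225 CPM. Irf8 was at 1696 and 1745 CPM in cDC1 against 150 and 109 CPM in cDC2. Wdfy4, which is required for cross-presentation, was at 1000 and 1177 CPM against 157 and 155 CPM. Tlr3, the receptor for double-stranded RNA, was at 139 and 130 CPM against 6.93 and 4.37 CPM, and Itgae, which encodes the integrin CD103, was at 169 and 266 CPM against 2.31 and 4.37 CPM. Batf3 separated cDC1 less clearly, at 180 and 162 CPM against 34.6 and 44.8 CPM in cDC2 and 249 and 130 CPM in mature dendritic cells. All of these are descriptions, since the members were chosen from the same counts.

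A minority of the members went against the label. Xcr1 was detected in 181 barcodes, and 63 had neither Xcr1 nor Siglech, a lectin gene of plasmacytoid dendritic cells. The remaining 41 had no Xcr1 and at least 1 Siglech UMI, with 3, 5 and 8 under αPD-1 and 4, 11 and 10 under αPD-1 + corin, or 19.3% and 12.4% of cDC1. In these 41, Siglech was at 1675 CPM, Bst2 at 4006 CPM and Tcf4, the transcription factor that sets plasmacytoid identity, at 2084 CPM. Naaa was at only 19.5 CPM there, and Batf3, Tlr3, Itgae and Rab7b were at 0. Their Irf8 was high at 2312 CPM, so that Irf8 did not tell the subsets apart. In the 181 barcodes with Xcr1, Naaa was at 1405 CPM, Wdfy4 at 1305 CPM, Batf3 at 203 CPM, Tlr3 at 160 CPM and Siglech at 23.4 CPM. The 63 barcodes with neither gene were close to those with Xcr1, with Naaa at 1141 CPM, Wdfy4 at 939 CPM, Batf3 at 122 CPM and Tlr3 at 99.8 CPM. Results were therefore also computed without the 41 barcodes, an alternative chosen after the data were seen.

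**Figure D1:**
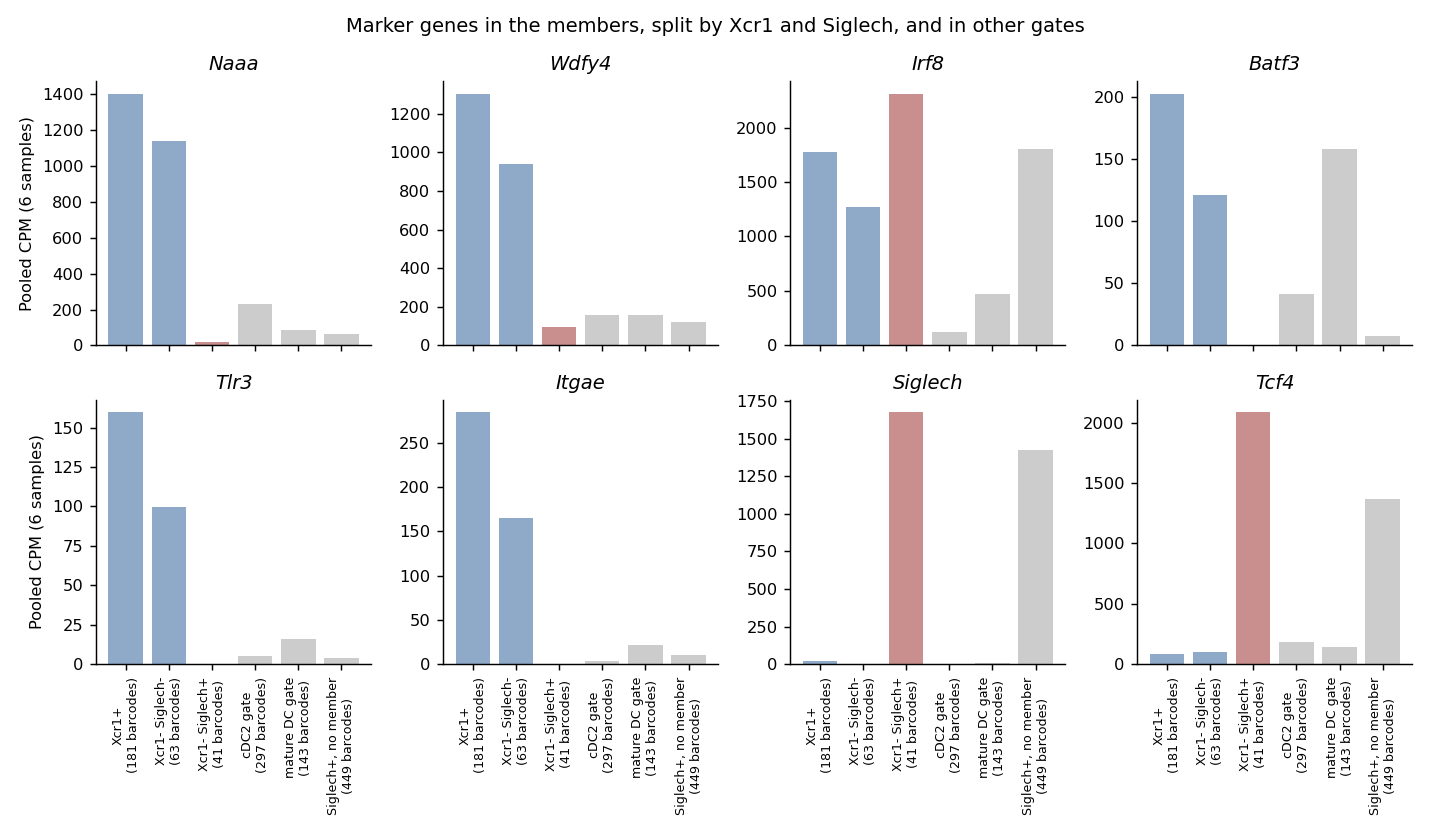
Levels of 8 marker genes, as CPM pooled over 6 samples, in the 3 subsets of the cDC1 barcodes and in 3 other gates. Each panel has its own axis from 0. The 41 barcodes with Siglech and no Xcr1 had Siglech at 1675 CPM and Naaa at 19.5 CPM, and resembled the 449 other barcodes with at least 3 Siglech UMIs.

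Barcodes near the limits of the rule were described without a test. Of the members, 161 held both Xcr1 and Clec9a, 20 held Xcr1 alone and 104 held Clec9a alone. The 104 barcodes with exactly 2 UMIs of these genes had Naaa at 784 CPM and Batf3 at 78.9 CPM, whereas the 181 with 3 or more had Naaa at 1379 CPM and Batf3 at 199.8 CPM. Just outside the rule, 235 barcodes with exactly 1 UMI had Naaa at 433 CPM and Batf3 at 56.0 CPM. The limit on T and B cell UMIs kept out 160 barcodes that met the other limits. It removed 47.9%, 44.4% and 47.6% of the candidates under αPD-1 and 17.5%, 31.7% and 41.3% under αPD-1 + corin. Macrophage barcodes carried such UMIs in a like order, at 38.4%, 29.8% and 41.4% against 9.06%, 20.2% and 31.2%, so that this limit bore more heavily on the αPD-1 samples.

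The first comparison asked whether cDC1 made up a different share of the cells when corin was added. cDC1 formed 0.560%, 0.664% and 0.746% of kept barcodes under αPD-1 and 1.02%, 1.34% and 1.24% under αPD-1 + corin. The groups did not overlap. The means were 0.657% ± 0.0932 (SD, n = 3) and 1.20% ± 0.163 (SD, n = 3), and the exact permutation test, two-sided, gave p = 0.1, which is the smallest value that 3 against 3 samples allow (adjusted p = 0.15 over 3 shares). Among immune barcodes, without the melanoma, fibroblast and endothelial gates, the means were 0.684% ± 0.101 (SD, n = 3) and 1.36% ± 0.156 (SD, n = 3), with the same exact permutation p of 0.1. These shares rest on how many other cells a sample held. B-gate barcodes numbered 650, 597 and 934 under αPD-1 and 61, 62 and 10 under αPD-1 + corin, and macrophage-gate barcodes numbered 562, 678 and 468 against 3995, 1184 and 1027. Without the neutrophil, B and plasma gates in the denominator, the mean share of kept barcodes was 0.805% against 1.25%, a ratio of 1.56 beside 1.83 with them, and the groups did not overlap. Per 100 macrophage-gate barcodes, cDC1 numbered 4.45, 3.69 and 7.05 under αPD-1 and 2.13, 4.73 and 5.94 under αPD-1 + corin, with groups that overlapped and a lower mean under αPD-1 + corin (exact permutation p = 0.6, n = 3 per group).

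Relative to other dendritic cells, cDC1 showed no such separation. They were 36.2%, 49.0% and 39.3% of the barcodes in the cDC1, cDC2 and mature dendritic cell gates under αPD-1 and 32.1%, 35.9% and 61.0% under αPD-1 + corin. These ranges overlapped (exact permutation p = 1, n = 3 per group). The values describe shares of captured barcodes, and a larger share of cDC1 cannot be told apart from fewer barcodes of other types.

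The share of kept barcodes kept its separation without the 41 barcodes with Siglech, at means of 0.530% ± 0.0362 and 1.03% ± 0.0519 (SD, n = 3 each). It lost it under a pair of other alternatives chosen after the data were seen. With T and B cell UMIs allowed, the means were 1.23% ± 0.177 and 1.77% ± 0.466, the groups overlapped and the exact permutation p was 0.2 (n = 3 per group). With barcodes holding a UMI of the neutrophil genes S100a8 or S100a9 left out, the means were 0.657% ± 0.0932 and 0.930% ± 0.254, again with overlap and an exact permutation p of 0.2 (n = 3 per group). This alternative removed no αPD-1 barcode, leaving 25, 25 and 33, and left 61, 35 and 60 under αPD-1 + corin. It could therefore only lower the share of the αPD-1 + corin group.

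**Figure D2:**
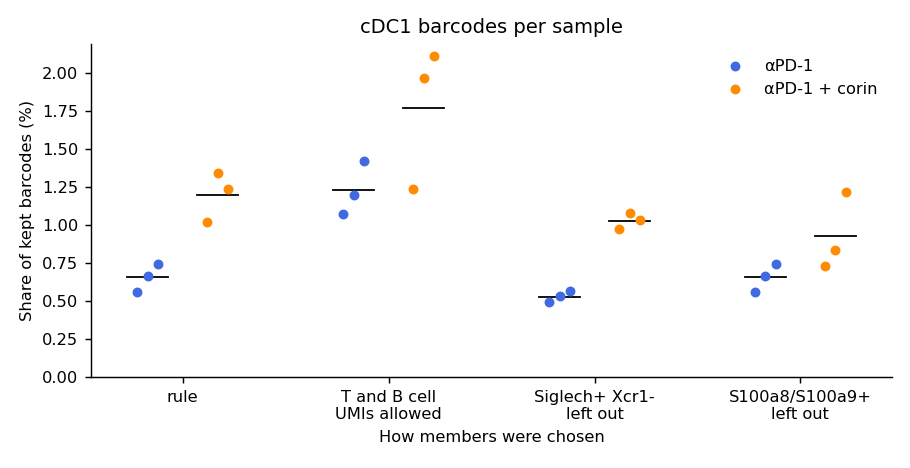
cDC1 as a percentage of kept barcodes in each of 3 αPD-1 and 3 αPD-1 + corin samples (points, with the group mean as a line), by the rule and under 3 alternatives. The groups are apart by the rule and without the Siglech barcodes, and overlap when T and B cell UMIs are allowed or when barcodes with S100a8 or S100a9 are left out. Leaving out S100a8 or S100a9 barcodes removes αPD-1 + corin barcodes only.

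The second comparison asked which genes differed within cDC1. The UMIs of all cDC1 barcodes of a sample were added up and the sums were tested with edgeR, and levels below are CPM scaled by edgeR's TMM factors. None of 4046 genes passed an adjusted p of 0.05 (0.0% of those tested), and the lowest adjusted p was 0.106. At an unadjusted p under 0.05, 228 genes (5.64%) were higher and 172 (4.25%) were lower in αPD-1 + corin. No overlap between the groups was seen for 318 genes (7.86%) that were higher and 312 (7.71%) that were lower, and without TMM scaling these were 242 and 408. DESeq2 on the same sums called 9 genes higher and 3 lower. Without αPD-1 + corin replicate 3, edgeR called 56 genes higher and 6 lower. The genes below are therefore described by their levels, and those with the lowest p were named after their values were seen.

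The stress genes Hspa1b and Hspa1a, which encode the inducible heat shock protein HSP70, were lower in αPD-1 + corin. Hspa1b was at 1735, 1374 and 859.9 CPM under αPD-1 and at 296, 340.3 and 558 CPM under αPD-1 + corin, a log2 difference of -1.73 (SE 0.27, adjusted p = 0.106 by edgeR). Hspa1a was at 2075, 1945 and 1203 CPM against 547, 449.9 and 962 CPM (log2 difference -1.42). Neither gene overlapped between the groups, and neither was particular to cDC1. In the T gate, Hspa1b was at 1071, 1033 and 697 CPM against 147, 123 and 458 CPM without TMM scaling, and in the macrophage gate at 577, 428 and 473 CPM against 99.1, 100.3 and 335 CPM. Of the immediate early genes, which cells switch on within minutes of a stimulus, the phosphatase gene Dusp1 was at 587, 545 and 429.9 CPM against 1501, 1263 and 798 CPM in cDC1 (log2 difference 1.19, SE 0.22). Fosb and Fos, subunits of the AP-1 factor, had log2 differences of 0.98 and 0.79. Of 21 tested genes in the list of immediate early and heat shock genes, 8 were higher and 3 lower at an unadjusted p under 0.05, with a median log2 difference of 0.18 beside -0.01 over all genes.

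Genes of MHC class II, the molecules that present peptides to CD4 T cells, were mostly higher. H2-Aa was at 7078, 7054 and 6961 CPM under αPD-1 and 10083, 9362 and 7627 CPM under αPD-1 + corin (log2 difference 0.36, SE 0.11). H2-Ab1 was at 6713, 5464 and 6541 CPM against 9107, 7522 and 6982 CPM (0.34, SE 0.12), and the invariant chain gene Cd74 had a log2 difference of 0.21. H2-Oa, a subunit of the DO molecule that restrains class II peptide loading, was at 80.3, 66.9 and 71.7 CPM against 175, 167 and 148 CPM, the clearest difference of the list (log2 1.17, SE 0.24, adjusted p = 0.111 by edgeR). Its partner H2-Ob had a log2 difference of 0.95 with groups that overlapped. Of 13 tested members, 11 were higher on average, 7 were higher and 0 lower at an unadjusted p under 0.05, and 5 were higher and 1 lower without overlap. Of the 4044 tested genes that the rule did not use, 1983 were higher on average. The median of the class II list was 0.34, and 0.30 without the 41 barcodes with Siglech. With no upper limit on genes per barcode it was 0.06, and Cd74 then had -0.05. H2-Ab1 was also higher in the cDC2 gate, at a pooled 4781 CPM in αPD-1 and 8184 CPM in αPD-1 + corin.

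Genes of MHC class I and cross-presentation showed no such shift, with a median of 0.01 over 24 tested members, of which 2 were higher and 0 lower at an unadjusted p under 0.05. B2m, the light chain of class I, was at 2810.1, 2758 and 2974 CPM against 2542, 3282 and 3394 CPM (log2 difference 0.11, SE 0.13). H2-K1 had a log2 difference of 0.22 and the peptide transporter gene Tap1 one of 0.14, both with overlapping samples. The largest value among those with p under 0.05 was that of Vamp8, a vesicle fusion gene, at 179, 175 and 164 CPM against 267, 257 and 237 CPM (log2 difference 0.56).

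The cDC1 identity genes were similar or somewhat higher. Of 23 tested members, 5 were higher and 0 lower at an unadjusted p under 0.05, and the median was 0.18, or 0.11 without the barcodes with Siglech and -0.08 with no upper limit on genes per barcode. Rab7b, a small GTPase gene of the late endosome, was at 160.6, 159.5 and 194.5 CPM against 321, 303 and 259 CPM (log2 difference 0.78, SE 0.20, adjusted p = 0.201 by edgeR). Wdfy4 was at 896, 1034 and 988 CPM against 1319, 1174 and 1113 CPM (0.30). The transcription factor genes Irf8 and Batf3 had log2 differences of 0.12 and -0.08, with SE 0.13 and 0.23. Itgae was at 247, 103 and 159 CPM against 332, 254 and 225 CPM, with groups that overlapped (0.69, SE 0.29). The share of cDC1 barcodes with an Itgae UMI, after each barcode was thinned to 2000 UMIs, was 25.4%, 17.0% and 21.0% against 40.6%, 32.3% and 27.0%. These groups did not overlap (exact permutation p = 0.1, n = 3 per group, adjusted p = 0.667 over 10 states), and in the macrophage gate, which should lack the gene, the share lay between 0.124% and 0.664%. Without thinning, 135 of 285 cDC1 barcodes (47.4%) had an Itgae UMI. The 41 barcodes with Siglech, which lacked Itgae, were 19.3% of αPD-1 cDC1 and 12.4% of αPD-1 + corin cDC1. Their part in the thinned share was not tested.

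**Figure D3:**
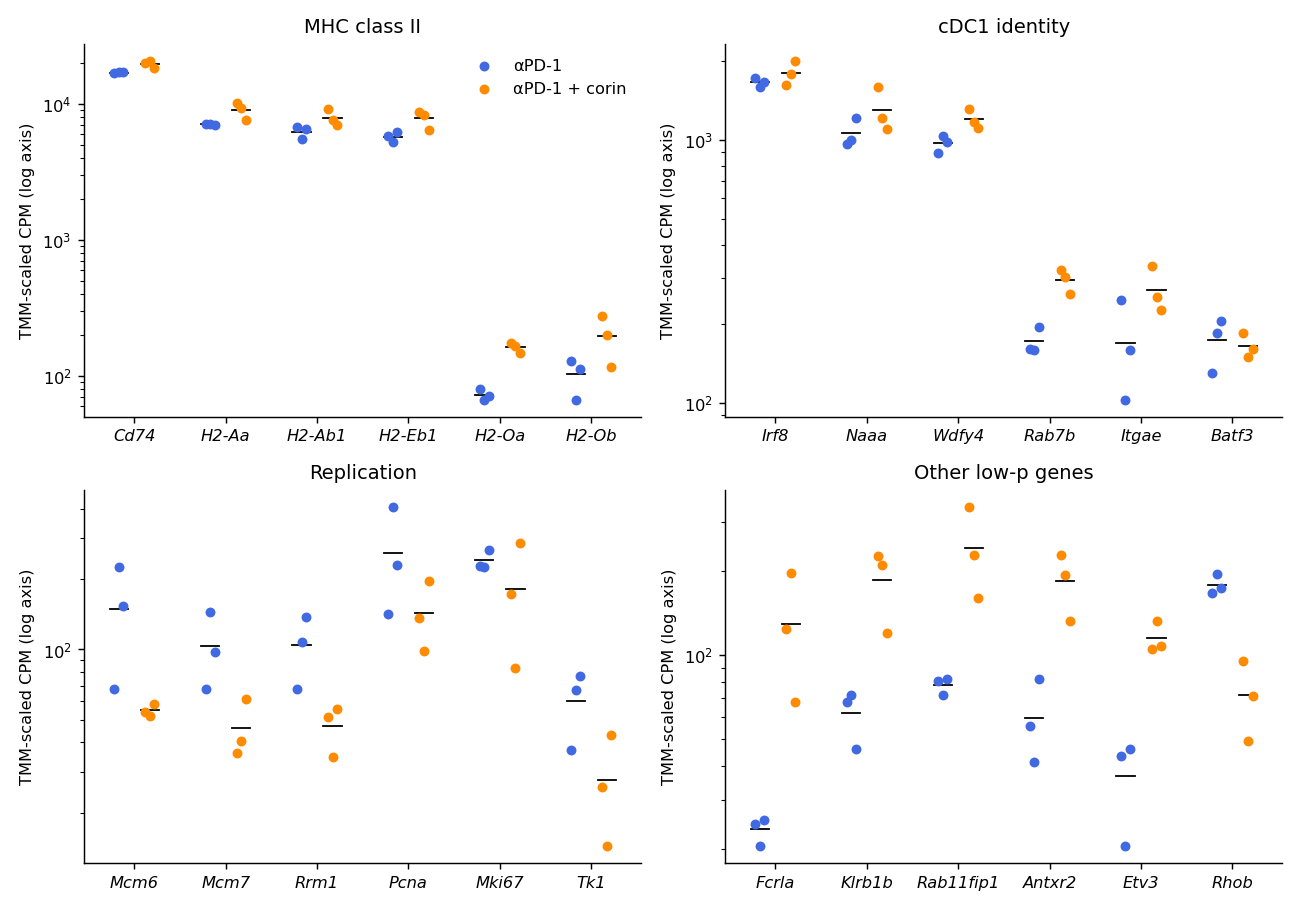
TMM-scaled CPM per sample on a log axis for genes of MHC class II, cDC1 identity, DNA replication and other genes with low p, with points for 3 samples of each group and a line for the mean. H2-Oa lies between 66.9 and 80.3 CPM in αPD-1 and between 148 and 175 CPM in αPD-1 + corin, whereas Batf3 overlaps.

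Several chemokine and cytokine genes had the largest log2 differences, and RNA of neutrophils moved with them. The inflammatory cytokine gene Il1b was at 92.6, 10.3 and 61.4 CPM under αPD-1 and 807, 845 and 166 CPM under αPD-1 + corin (log2 difference 3.51, SE 0.63, adjusted p = 0.106 by edgeR). The chemokine gene Cxcl2, which attracts neutrophils, was at 296, 0 and 189 CPM against 1943, 3138 and 219 CPM, and Ccl3 at 191, 206 and 102 CPM against 449.8, 1197 and 219 CPM. The neutrophil gene S100a9 had no UMI in αPD-1 cDC1 and was at 1864, 3098 and 52.4 CPM in αPD-1 + corin, a pooled level at least 299.7-fold higher when 3 UMIs over the αPD-1 group are taken as the floor. Summed over 12 neutrophil markers, cDC1 held 6.35, 0 and 16.0 CPM against 3212, 4619 and 128 CPM without TMM scaling, and 10 of the 12 were at 0 in αPD-1 and only Camp in αPD-1 + corin.

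The same genes were found in cells that should lack them. In the T gate, S100a9 was at 82.2, 12.2 and 0 CPM against 2225, 4763 and 266 CPM, and Il1b at 36.6, 39.8 and 45.7 CPM against 604, 1058 and 124 CPM, without TMM scaling. On that scale Il1b in cDC1 was at 759, 827 and 168 CPM in αPD-1 + corin, above the T gate in 2 of 3 samples and below it in the other. S100a9 in cDC1 was then at 1753, 3031 and 53.0 CPM, below the T gate in each sample. The T gate is therefore no matched background, and a level of Il1b beyond background was not tested. In cDC1, 20 of 85, 18 of 56 and 1 of 61 barcodes of the αPD-1 + corin samples held an S100a9 UMI, with up to 125, 194 and 17 in 1 barcode. Barcodes holding S100a8 or S100a9 came from αPD-1 + corin samples only. Without them, the log2 difference of Cxcl2 was -0.29 and that of Ccl3 was -0.48, against 3.48 and 1.91 with them. Il1b then had 2.50 (adjusted p = 0.174 by edgeR). It was at 95.2, 10.3 and 64.0 CPM under αPD-1 and 498, 262 and 129 CPM under αPD-1 + corin, without TMM scaling.

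**Figure D4:**
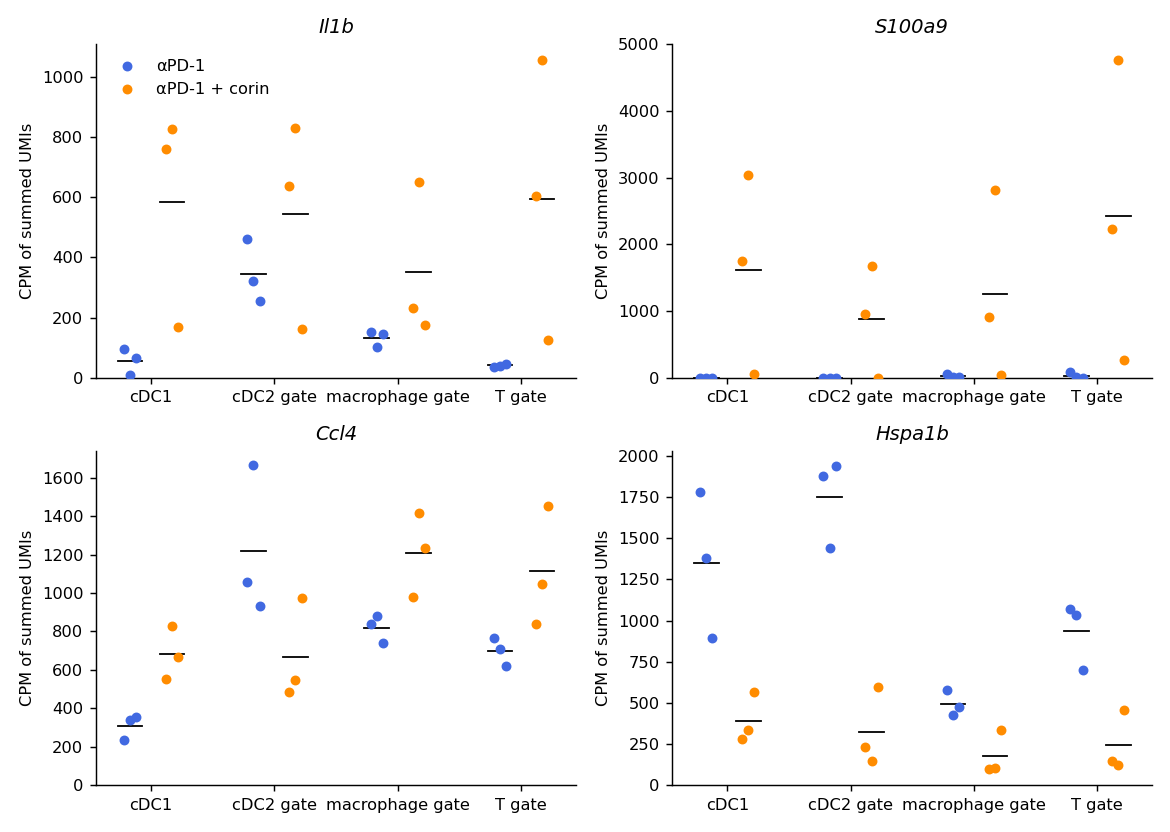
CPM of summed UMIs, without TMM scaling, for Il1b, S100a9, Ccl4 and Hspa1b in cDC1 and in the cDC2, macrophage and T gates, with points for 3 samples per group and lines for the means. In αPD-1 + corin replicates 1 and 2, S100a9 is higher in the T gate than in cDC1 and Il1b is at 604 and 1058 CPM in the T gate, and Hspa1b is lower in αPD-1 + corin in all 4 classes.

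Among the other chemokine genes, Ccl4, which encodes a chemokine for T cells and monocytes, was at 229, 339.6 and 338 CPM against 586, 845 and 657 CPM (log2 difference 1.20, SE 0.21, adjusted p = 0.106 by edgeR). Without TMM scaling it was at 322, 154 and 207 CPM in αPD-1 samples of the B gate and 907, 1427 and 165 CPM in αPD-1 + corin samples, and without S100a8 or S100a9 barcodes the log2 difference was 0.78. Cxcl9 was at 210.0, 355 and 317 CPM against 54.0, 213 and 339 CPM (-0.56, SE 0.46), and Cxcl10 and Ccl5 had log2 differences of -0.68 and -1.66. Each of Cxcl9 and Cxcl10 overlapped between groups. Over the 12 tested cytokine and chemokine genes, 7 were higher and 1 lower at an unadjusted p under 0.05, with a median of 1.09. Without the S100a8 or S100a9 barcodes that median was 0.02, and without αPD-1 + corin replicate 1 it was 0.64.

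Genes of DNA replication were lower on average in αPD-1 + corin. Mcm6 and Mcm7, subunits of the replicative helicase, were at 67.9, 226 and 154 CPM and 67.9, 144 and 97.3 CPM in αPD-1, and at 54.0, 51.9 and 58.6 CPM and 36.0, 40.4 and 61.7 CPM in αPD-1 + corin. The log2 differences were -1.46 (SE 0.36) and -1.19 (SE 0.34), with adjusted p of 0.189 and 0.256 by edgeR. Rrm1, a subunit of the enzyme that makes deoxynucleotides, had -1.16, and the clamp gene Pcna had -0.87 with overlapping samples. The proliferation marker Mki67 was at 229, 226 and 266 CPM against 172, 83.6 and 287 CPM (-0.42, SE 0.35), also with overlap. Of 20 tested cell cycle genes, 0 were higher and 6 lower at an unadjusted p under 0.05, 3 were lower without overlap, and the median was -0.50. With T and B cell UMIs allowed the median was 0.06, and without αPD-1 + corin replicate 3 it was -1.05. The share of cDC1 barcodes in a cycling state, with at least 2 UMIs over 11 cell cycle genes after thinning, was 21.6%, 18.1% and 32.7% against 18.9%, 7.18% and 26.4% (exact permutation p = 0.5, n = 3 per group), and overlapped between groups.

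Of the genes of the drug's target, 2 of 8 had a positive log2 difference, beside 1983 of the 4044 tested genes that the rule did not use. Of these 8 tested genes of the CoREST complex and its partners, 0 were higher and 1 lower at an unadjusted p under 0.05. That gene was Ctbp1, a corepressor partner, at 80.3, 92.6 and 87.0 CPM against 51.4, 40.4 and 40.1 CPM (log2 difference -0.97, SE 0.28, adjusted p = 0.256 by edgeR). Kdm1a, which encodes the demethylase LSD1, had -0.25 (SE 0.33), the scaffold gene Rcor1 had -0.23 (SE 0.28) and the deacetylase gene Hdac1 had -0.32 (SE 0.27). Over 41 tested splicing factor genes, 0 were higher and 3 lower at an unadjusted p under 0.05, with a median of -0.11. Over all genes, 5.64% were higher and 4.25% lower at that p. Without overlap, 3 splicing factor genes were higher and 5 lower, beside 7.86% and 7.71% over all genes. Srsf1 and U2af2 had log2 differences of -0.48 and -0.10, and Sf3b1, which recognises the branch point, had 0.34.

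Interferon-responsive genes with an unadjusted p under 0.05 were about as frequent as over all genes, of which 5.64% were higher and 4.25% lower. Over 18 tested genes of the type I interferon response, 0 were higher and 1 lower at an unadjusted p under 0.05. A positive log2 difference was seen for 4 of the 18, beside 1983 of the 4044 tested genes that the rule did not use. Without overlap, 0 were higher and 2 lower, beside 7.86% and 7.71% over all genes. The median was -0.28, and ran from -0.34 with no upper limit on genes per barcode to -0.04 without the C1q limit. The ubiquitin-like modifier gene Isg15 was at 136, 237 and 404 CPM against 179.9, 245 and 145 CPM. Over 16 genes of the interferon gamma response, 2 were higher and 0 lower, with a median of 0.04. The transcription factor gene Irf1 had a log2 difference of -0.19 (SE 0.30) and the GTPase gene Gbp2 had 0.39, both with overlapping samples.

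Metabolic genes went in opposite directions by list. Of 16 tested hypoxia and glycolysis genes, 4 were higher and 0 lower at an unadjusted p under 0.05 with a median of 0.27, which was 0.03 without αPD-1 + corin replicate 1 and 0.03 without the S100a8 or S100a9 barcodes. It was 0.07 with 25 barcodes per sample, 0.47 with T and B cell UMIs allowed and 1.27 with no upper limit on genes per barcode. Pfkp, a phosphofructokinase gene of glycolysis, was at 414, 453 and 517 CPM against 799, 920.0 and 644 CPM (log2 difference 0.77, SE 0.18). Of 13 tested cholesterol and lipid genes, 0 were higher and 3 lower with a median of -0.27, or -0.70 without αPD-1 + corin replicate 2. They included the cholesterol synthesis genes Hmgcs1 with -0.94 and Fdps with -0.65. Fdps was at 395, 329 and 333 CPM against 198, 248 and 228 CPM.

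Genes of maturation and costimulation were measured at low levels. The rule itself allowed at most 2 UMIs over the maturation genes Fscn1, Ccl22 and Cacnb3. This limit kept out 6 barcodes that met the others, and mature dendritic cells were gated apart. Low levels of maturation genes, Ccr7 among them, therefore cannot be told apart from the selection. Cd86, a ligand of CD28, was at 191, 159.5 and 169 CPM against 208, 242 and 247 CPM (log2 difference 0.42, SE 0.20), without overlap. Cd274, which encodes the checkpoint ligand PD-L1, was at 49.4, 46.3 and 25.6 CPM against 69.4, 167 and 49.3 CPM (1.24, SE 0.50), with groups that overlapped. The share of barcodes with a Cd274 UMI after thinning had means of 6.82% and 12.5% and also overlapped (exact permutation p = 0.2, n = 3 per group). Tnfsf9, the ligand of 4-1BB, was at 160.6, 41.2 and 66.5 CPM against 28.3, 17.3 and 18.5 CPM (-1.98, SE 0.49), without overlap. Cd40, Ccr7, Il12b and Hdac2 had too few UMIs to be tested. Il12b, a subunit of interleukin 12, was found in 7 of 285 barcodes, and Ccr7, the receptor for migration to lymph nodes, in 7. Of 13 tested maturation genes, 2 were higher and 1 lower at an unadjusted p under 0.05, with a median of 0.40, and of 10 tested costimulation genes 2 were higher and 1 lower, with a median of 0.10.

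The remaining lists had few tested members. Their counts stand beside 5.64% higher and 4.25% lower over all genes at an unadjusted p under 0.05. Of 10 tested growth factor receptor and survival genes, 2 were higher and 0 lower at an unadjusted p under 0.05, with a median of 0.19. They included Mycl, a transcription factor gene of cDC1, at 49.4, 30.9 and 92.1 CPM against 108, 121 and 114 CPM (log2 difference 0.98). Of 13 tested migration and adhesion genes, 1 was higher and 1 lower, with the chemokine receptor gene Cxcr3 at 0.90. Of 9 tested genes of pattern recognition and dead-cell uptake, none passed an unadjusted p under 0.05 in the edgeR test in either direction, with a median of 0.10.

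Genes outside the lists were among those with the lowest p. Fcrla, an Fc receptor-like gene best known in B cells, was at 24.7, 20.6 and 25.6 CPM against 123, 196 and 67.8 CPM (log2 difference 2.44, SE 0.46, adjusted p = 0.106 by edgeR). In the cDC2 gate it had at most 6.35 CPM in any sample, and in the 181 cDC1 barcodes with Xcr1 it was at 37.7, 22.4 and 0 CPM against 108, 156 and 57.4 CPM, both without TMM scaling. Klrb1b, a lectin-like receptor gene, was at 67.9, 72.0 and 46.1 CPM against 226, 211 and 120.2 CPM (1.59). Rab11fip1, a gene of endosome recycling, was at 80.3, 72.0 and 81.9 CPM against 339, 228 and 160.3 CPM (1.64), and Etv3, a transcriptional repressor gene, at 43.2, 20.6 and 46.1 CPM against 105, 133 and 108 CPM (1.65). Rhob, a small GTPase gene, was lower at 167, 196 and 174 CPM against 95.1, 49.0 and 70.9 CPM (-1.31, adjusted p = 0.111 by edgeR). None of these overlapped between the groups in cDC1. In the cDC2 gate the log2 difference was 1.43 for Klrb1b, 0.54 for Rab11fip1, 0.64 for Etv3 and -1.13 for Rhob. Rab11fip1 was also at a pooled 249 CPM in the neutrophil gate under αPD-1 + corin.

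**Figure D5:**
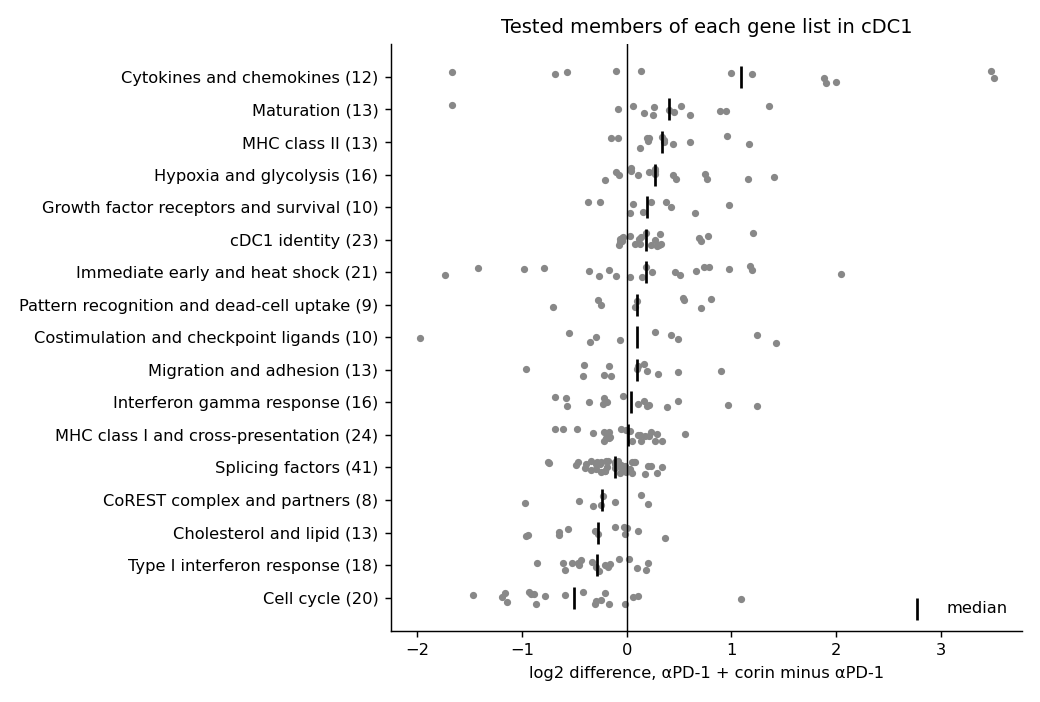
Log2 difference of αPD-1 + corin minus αPD-1 in cDC1 for each tested member (points) of 17 gene lists, with the list's median as a line and the number tested in brackets. Medians range from -0.50 for cell cycle genes to 1.09 for cytokines and chemokines, with points on both sides of 0 in each list.

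The third comparison asked whether the treatment difference in cDC1 was unlike that in cDC2. The interaction of class and treatment, fitted by edgeR with the sample as a term, passed an adjusted p of 0.05 for 3 of 3991 genes (0.0752%). Il1b had an interaction of 2.79 on the log2 scale (SE 0.39, adjusted p = 0.0131 by edgeR), since cDC2 already held 461, 323 and 255 CPM in αPD-1 and 638, 831 and 163 CPM in αPD-1 + corin. Ccl4 had 2.07 (SE 0.30, adjusted p = 0.0131 by edgeR), with 1058, 1667 and 932 CPM against 483, 546 and 972 CPM in cDC2. For both genes the αPD-1 samples were lower in cDC1 than in cDC2, and the levels of the αPD-1 + corin samples were closer between the classes. Mcm6 had -4.82 (SE 0.78, adjusted p = 0.0276 by edgeR). It rested on few counts, with 0, 1 and 1 UMIs in αPD-1 cDC2 and 10, 22 and 15 in αPD-1 + corin cDC2, beside 11, 44 and 30 against 21, 18 and 19 in cDC1. Without the sample as a term, edgeR called 0 genes. Hspa1b had an interaction of 0.88 (adjusted p = 0.534 by edgeR), and its log2 difference was -2.51 in cDC2.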

How the data were processed

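Single-cell 5' libraries of CD45+ cells were measured in 3 αPD-1 and 3 αPD-1 + corin samples. CD45+ cells had been isolated with magnetic beads from thawed tumor suspensions, and about 23000 cells were loaded. The authors aligned reads with Cell Ranger 8.0 to a reference given as GRCm39 and deposited raw UMI counts of 32285 genes for barcodes called as cells, with no doublet or quality filter. Depth per sample is given by the UMI totals of the summed cDC1 counts, and intervals and floors cover counting error only.

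The filters on genes and mitochondrial UMIs followed the study. Doublets were not removed in the main analysis. Scrublet (scanpy 1.11.5) removal was an alternative, at 0.4% per 1000 barcodes. Other classes were gated on marker UMIs. For genes, the summed counts went into edgeR 4.0.16 (filterByExpr, TMM factors, glmQLFit and glmQLFTest), with Benjamini-Hochberg adjustment and a threshold of 0.05. The script was tested on simulated data. Shares were compared by exact permutation over samples. Shares of barcodes with a gene were thinned to 2000 UMIs as the expectation over all draws, and shallower barcodes were left out.

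Genes were named from among the called genes with the largest changes, the canonical members of each list, list members with an unadjusted p under 0.05 up to 8 per list, and, since no gene was called, the 15 with the lowest p, which were chosen after their values were seen. Not every gene of these groups is given in the text. Members and lists were chosen with earlier results of these data known, so no list is independent evidence. Alternatives were other limits of the rule, DESeq2 1.42.0, size factors by RLE, all genes without the low-count filter, a replicate block and each sample left out. Those without the T and B limit, without the Siglech barcodes and without S100a8 or S100a9 barcodes were added after the data were seen. Values of 3 members of the lists are not reported here, although the counts and medians over their lists include them.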

Additional observations from a re-analysis of the deposited data

Results flagged for a closer look

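The treatment difference itself differed between cDC1 and cDC2 for 3 genes, by the interaction of class and treatment in edgeR. The log2 difference in cDC1 minus that in cDC2 was 2.79 for Il1b (adjusted p = 0.0131), 2.07 for Ccl4 (adjusted p = 0.0131) and -4.82 for Mcm6 (adjusted p = 0.0276). Mcm6 had 0, 1 and 1 UMIs in αPD-1 cDC2. With each sample left out in turn, Il1b passed every time, and Ccl4 failed without αPD-1 replicate 2. Mcm6 failed without replicate 2 or 3 of either group. Neutrophil RNA moved with the Il1b value in cDC1 and in the T gate, and its part in the interaction was not tested.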

How the results depend on the processing

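The share of kept barcodes and that of immune barcodes were higher under αPD-1 + corin in each alternative that was run for them, but not the number per macrophage. The share among dendritic cells, which did not separate the groups, turned to a difference of -5.55 percentage points with T and B cell UMIs allowed and -4.23 without S100a8 or S100a9 barcodes, and ranged from -7.53 to 6.94 with each sample left out. Counts of called genes depended on the setting, and the cause was not tested. They were 47 higher and 4 lower without the C1q limit, 7 and 19 with T and B cell UMIs allowed, 190 and 34 without the low-count filter, 9 and 3 with DESeq2, and 0 and 1 (Hspa1b) without cycling barcodes. Leaving out a sample gave 0 to 56 higher and 0 to 6 lower, and the 56 and 6 came without αPD-1 + corin replicate 3. Interactions with cDC2, genes of both gates left out, numbered 32 positive and 4 negative without the low-count filter, 0 and 0 without the sample term, 4 positive without the Siglech barcodes, and 1 to 5 positive and 0 to 1 negative with a sample left out.

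With the replicate number as a block, 11 genes were higher and 2 lower. Deviations of same-numbered samples from their group means had correlations of 0.042, -0.096 and -0.045. With 3 samples per group, these values cannot decide whether same-numbered samples share a batch. The labels give such samples only the same number, so the paired fit is no main result.

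The share of cDC1 barcodes with Cd8a differed by -2.38 percentage points without thinning, and that with Cd40 by 0.071 when thinned to 1000 UMIs. With each sample left out, the differences ranged from -0.74 to 1.26 for Ccr7, -10.4 to 1.00 for Cxcl9, -2.15 to 2.35 for Cd8a and -1.41 to 0.83 for Cd40. Genes whose log2 difference changed sign are given next. The main test called no gene, so whether called genes keep their sign could not be seen. Without S100a8 or S100a9 barcodes, the log2 difference was 0.035 for Batf3, 0.10 for Tlr3, 0.077 for Flt3, -0.29 for Cxcl2 and -0.48 for Ccl3. Without cycling barcodes, the log2 difference was 0.44 for Batf3, 0.83 for Tlr3, -0.063 for B2m, -0.036 for H2-K1, 0.0049 for Cxcl9 and -0.14 for Gbp2. Without the low-count filter, the log2 difference was 0.0040 for Batf3, 0.049 for Tlr3, 0.017 for Cadm1 and 0.031 for Flt3. With no upper limit on genes per barcode, the log2 difference was -0.12 for Irf8, -0.057 for H2-K1, -0.048 for Cd74, -0.038 for Irf7 and 0.17 for Rcor1. With at least 1 UMI of each of Xcr1 and Clec9a, the log2 difference was -0.035 for Irf8, 0.031 for Flt3 and -0.24 for Irf7. With a mitochondrial limit of 5%, the log2 difference was 0.040 for Tlr3 and -0.0011 for Irf7. With T and B cell UMIs allowed, the log2 difference was 0.0040 for Tlr3, 1.40 for Ccl5, 0.30 for Isg15, 0.17 for Mki67, 0.015 for Kdm1a and 0.10 for U2af2. With at least 3 UMIs of Xcr1 and Clec9a, the log2 difference was 0.15 for Cadm1, 0.22 for Cxcl10, -0.11 for Irf7 and 0.13 for Rcor1. Without the C1q limit, the log2 difference was 0.017 for Flt3, 0.39 for Cxcl10, 0.21 for Isg15 and 0.10 for Irf1. With 25 barcodes per sample, the log2 difference was 0.30 for Flt3, -0.0046 for Tap1 and 0.081 for U2af2. Without the Siglech barcodes, the log2 difference was -0.059 for Irf7. With each sample left out, the log2 difference ranged from -0.23 to 0.074 for Batf3, -0.14 to 0.050 for Tlr3, -0.38 to 0.47 for Cadm1, -0.21 to 0.22 for Flt3, -1.19 to 0.0062 for Cxcl10, -0.74 to 0.030 for Isg15, -0.18 to 0.25 for Irf7, -0.11 to 1.13 for Gbp2, -0.53 to 0.10 for Irf1 and -0.26 to 0.12 for U2af2. The 83 and 202 cDC1 barcodes and the 3 samples per group limit what can be detected.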
